A study of Mus musculus with 12 samples.

Results

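The small nucleolar RNAs (snoRNAs) and small Cajal body RNAs of the mouse nucleus accumbens are described here, as they were measured on a microarray in adult offspring of poly(I:C)-exposed and control pregnancies. The members were chosen by gene symbol: every row of the deposited value table whose platform annotation gives a single symbol beginning with Snora, Snord or Scarna was kept, whatever its level. That gave 67 rows of the 35556 in the table and of the 21218 that carry a single symbol. They stand for 59 symbols: 31 Snora rows (26 symbols), 32 Snord rows (30 symbols) and 4 Scarna rows (3 symbols). A further 13 rows list a snoRNA beside other genes and were left out. The family was singled out with the poly(I:C) contrast already known, so the members' differences between the groups are a description and support nothing.

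SnoRNAs are short, stable nuclear RNAs that base-pair with ribosomal RNA and guide its chemical modification. H/ACA snoRNAs, named Snora, guide the change of uridine to pseudouridine by dyskerin (Dkc1), and C/D snoRNAs, named Snord, guide methylation of the ribose by fibrillarin (Fbl). Scarna RNAs carry the same motifs, collect in Cajal bodies and guide modification of the spliceosomal RNAs. Most mammalian members have no promoter of their own and are cut out of introns of host genes, many of which encode ribosomal proteins or translation factors, while others are long noncoding RNAs such as Gas5 and the Snhg genes.

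Pregnant C57BL/6N mice received poly(I:C), an artificial RNA duplex used to imitate viral infection, at 5 mg/kg into a vein on gestation day 17, or saline on the same day. The nucleus accumbens of their offspring was dissected at 12 weeks of age, and each group has 6 arrays from offspring that the labels call biological replicates. The labels give neither litter, sex nor array batch, so the p-values take the offspring as independent animals. All values are log2 RMA values of 1 array each, where RMA is background correction, quantile normalization and summary of the probes, and each difference is the poly(I:C) mean less the control mean on that scale.

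The array medians over all rows lay between 4.78 and 4.85 and the correlations between arrays between 0.991 and 0.997, with 0 pairs of identical arrays. Of 12 listed markers of striatal medium spiny neurons, 10 had a row and all 10 were above 5.47, the median level of the tested rows, with a mean of 9.08 ± 0.20 in controls and 9.14 ± 0.14 after poly(I:C) (SD, n = 6 each). Of the members, 28 of 67 were above that level: 13 Snora, 12 Snord and 3 Scarna rows. The labels name column-purified total RNA and kits that prime from poly(A) as well as kits for whole transcripts. As snoRNAs are short and carry no poly(A) tail, how much of each mature snoRNA entered the labelled sample was not tested. Rows of 1 symbol share their target: the rows of Scarna17, Snora30, Snora5c, Snora19 and Snord118 came in pairs with identical values on all arrays, and the pair of Snora3 rows was nearly so, while the Snora21 rows differ.

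Of the 59 symbols, 58 lie inside the span of another gene in the RefSeq annotation of GRCm38.p6: 45 inside a protein-coding gene, 20 of them a ribosomal protein gene, and 13 inside a long noncoding RNA gene alone. Snord118, which is transcribed from a gene of its own, was the exception. Start regions are shown for Rpl27a, which spans Snora3, the member with the largest difference, and for the 5 hosts of the members that varied most alike within a host, because members of 1 host share this promoter. They are 60 bases each, from 40 bases before to 20 bases after the RefSeq start, 5′ to 3′ on the gene's strand, with any CTTTC in capitals. A pyrimidine-rich start of this kind is a known mark of the transcripts of ribosomal protein genes and of many snoRNA hosts. The windows are chr4:132308638-132308697 (plus strand) for Snhg12, chr7:109519155-109519214 (plus) for Rpl27a, chr4:132353667-132353726 (minus) for Snhg3, chr11:62602837-62602896 (plus) for 2410006H16Rik, chr15:98534250-98534309 (minus) for Kansl2 and chr7:99483690-99483749 (minus) for Rps3.
Snhg12: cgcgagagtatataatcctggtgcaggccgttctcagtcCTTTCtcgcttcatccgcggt
Rpl27a: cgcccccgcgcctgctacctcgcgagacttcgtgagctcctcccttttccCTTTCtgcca
Snhg3: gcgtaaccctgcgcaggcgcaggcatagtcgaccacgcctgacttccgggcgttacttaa
2410006H16Rik: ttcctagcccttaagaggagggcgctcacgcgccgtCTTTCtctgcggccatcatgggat
Kansl2: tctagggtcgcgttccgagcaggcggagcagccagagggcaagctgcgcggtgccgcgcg
Rps3: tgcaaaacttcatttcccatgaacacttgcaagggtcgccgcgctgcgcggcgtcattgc

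CTTTC was searched on both strands. It stands on the gene's own strand at 11 of 39 starts of genes that span a member (28.2%) and at 2663 of all 32851 starts in the promoter table (8.11%). On either strand the shares are 30.8% and 14.8%. Among the windows printed, Snhg12, Rpl27a and 2410006H16Rik hold it and Snhg3, Kansl2 and Rps3 do not. A match describes these letters and was not tested as a site.

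No member passed an adjusted p of 0.05 in the poly(I:C) contrast (limma, Benjamini-Hochberg over 21218 rows), against 13 of all 21218 rows (0.0613%), and the smallest adjusted p among the members was 0.059. At an unadjusted limma p under 0.05 there were 22 of 67 members, beside 14.4% of all tested rows. Of these 22, 18 were lower after poly(I:C), beside 6.57% of all rows, and 4 were higher, beside 7.83%. In value, 51 of 67 members were lower, with a median difference of -0.065 against 0.002 over all rows tested.

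The classes were described apart. The 31 H/ACA rows had a median difference of -0.16, with 25 lower in value, and 15 lower and 0 higher at unadjusted p under 0.05. The 32 C/D rows had a median of -0.054, with 24 lower in value, and 2 lower and 2 higher at that p. In either direction this was 12.5% of the C/D rows, beside 14.4% of all tested rows. Among rows above the median level, all 13 H/ACA rows were lower in value, with a median of -0.41, while the 12 C/D rows had a median of -0.053 with 8 lower. Of all tested rows above that level, 40.5% were lower, with a median of 0.022. The 13 H/ACA rows stand for 12 symbols, of which Snora16a, Snora44 and Snora61 share the host Snhg12. The mean over H/ACA rows was 5.56 ± 0.16 in controls and 5.27 ± 0.14 after poly(I:C) (SD, n = 6), and the mean over C/D rows was 5.19 ± 0.15 and 5.12 ± 0.15. The C/D difference in means of -0.071 was -0.013 without poly(I:C) replicate 6 and -0.021 without control 4, and the C/D median was -0.031 and -0.018 without them, while the H/ACA difference in means of -0.29 ran from -0.34 to -0.24 over all arrays left out in turn. That the classes differ from each other was not tested, as their members were chosen with the contrast known.

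**Figure D1:**
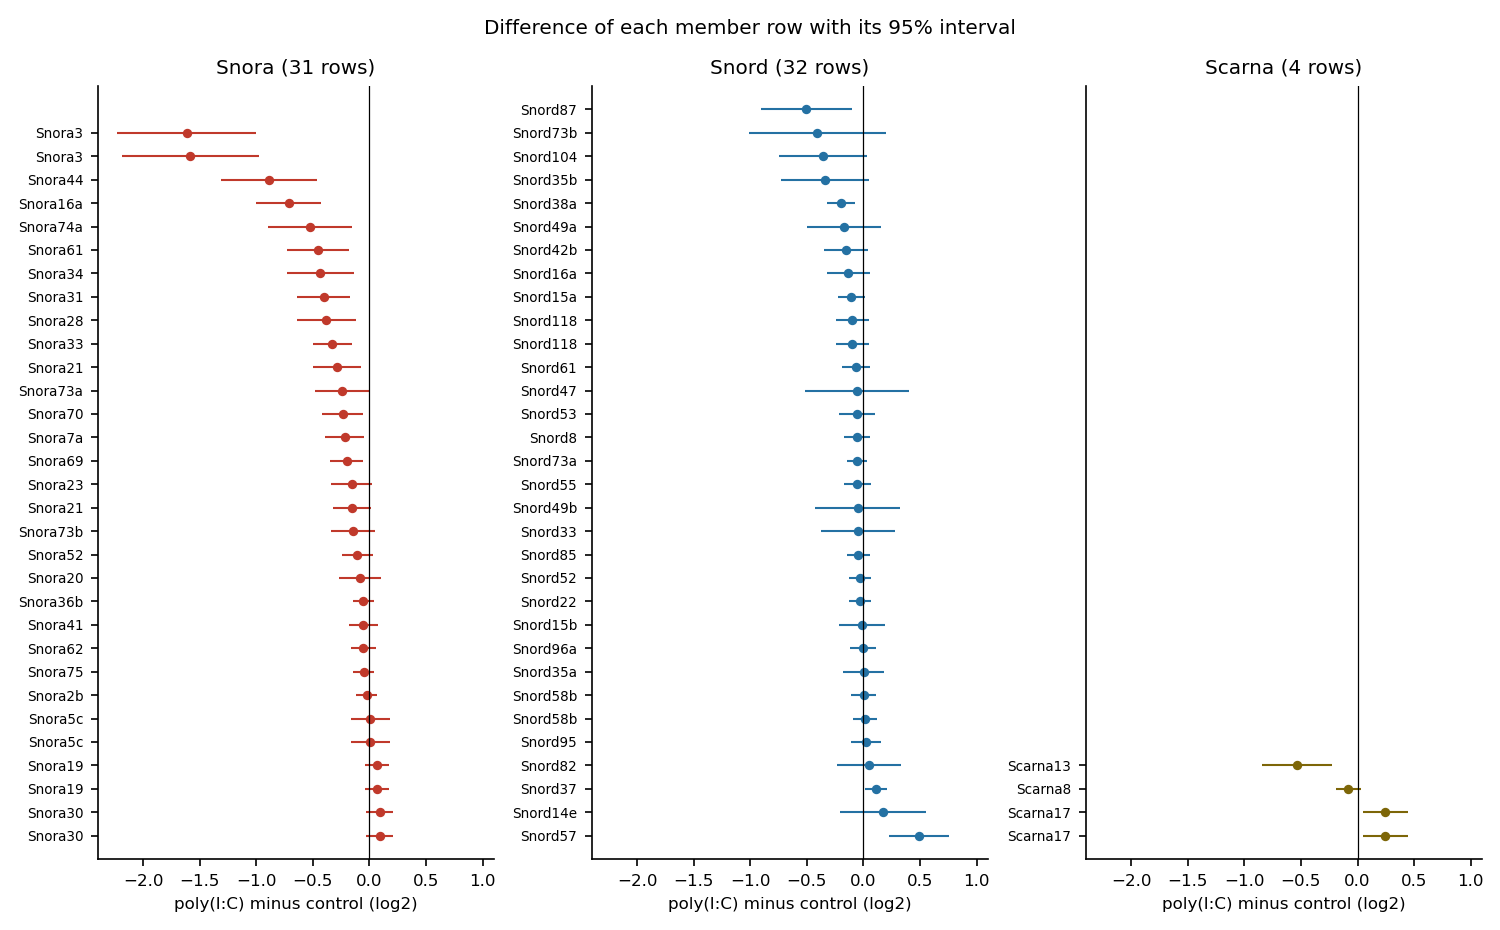
Difference between the 6 poly(I:C) and 6 control arrays for each member row, on the log2 scale (x axis), with its 95% limma interval as a horizontal line, in 3 panels for Snora, Snord and Scarna rows ordered by value. The H/ACA rows lean to the left of 0, led by both Snora3 rows near -1.6, while most C/D rows lie near 0.

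Snora3, an H/ACA snoRNA of an Rpl27a intron, had the largest difference. Its first row ran from 8.16 to 9.49 in controls (median 8.44) and from 6.41 to 8.18 after poly(I:C) (median 6.97). The ranges overlap only through poly(I:C) replicate 1, which lay just above control 6. The difference was -1.58 (95% interval -2.19 to -0.98, limma adjusted p = 0.059), and the second Snora3 row gave -1.62, which is 3.06-fold lower, at the same adjusted p. The row passed the threshold under 7 of the alternatives tried, with limma adjusted p from 0.013 to 0.509 over them. Without control 3 or poly(I:C) replicate 1 it was among 3 member rows called, and without control 1 it was among 2. Calls over all rows were not counted in those fits.

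Snhg12, a long noncoding host gene, spans 3 members, and all 3 were lower in value. Snora16a ran from 9.18 to 9.75 in controls (median 9.36) and from 8.39 to 9.29 after poly(I:C) (median 8.64), again with only poly(I:C) replicate 1 inside the control range. Its difference was -0.71 (95% interval -0.999 to -0.43, limma adjusted p = 0.070). Snora44 ran from 7.21 to 8.19 (median 7.49) against 6.19 to 7.15 (median 6.82), so the groups did not overlap, and its difference was -0.89 (limma adjusted p = 0.092). Snora61, named here after its values were seen, had a difference of -0.46 (limma adjusted p = 0.154). Snora16a passed the threshold under 6 alternatives, the limma adjusted p reaching from 0.013 to 0.603.

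Snora33, from an intron of the ribosomal protein gene Rps12, is a row of low level. It ran from 4.43 to 4.90 in controls (median 4.51) and from 4.23 to 4.39 after poly(I:C) (median 4.28). Snora33 and Snora44 were the only members whose groups did not overlap in the lower direction, 2 of 67, beside 0.523% of all rows. In the higher direction there were 0 of 67, beside 0.603%. The difference of Snora33 was -0.33 (limma adjusted p = 0.111), with controls 1 and 4 well above the other controls.

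Snora31, in the gene of the translationally controlled tumour protein Tpt1, ran from 5.55 to 6.07 in controls (median 5.69) and from 4.95 to 5.69 after poly(I:C) (median 5.33), with overlapping groups and a difference of -0.41. Other H/ACA rows that were lower at unadjusted p under 0.05 include Snora74a at -0.53, Snora34 at -0.43, Snora28 at -0.38, 1 of the Snora21 rows at -0.29, Snora70 at -0.24, Snora7a at -0.22 and Snora69 at -0.20, all with overlapping groups. The other Snora21 row was at -0.16 (95% interval -0.32 to 0.01). Snora73a and Snora73b, a pair in Snhg3 that takes part in processing of the ribosomal RNA precursor instead of its modification, had differences of -0.24 and -0.14, the first of them at unadjusted p under 0.05. The H/ACA rows with a value above 0 were the pairs of Snora30 (0.09), Snora19 (0.07) and Snora5c (0.01), the last of which took either sign with 1 array left out. The rest, among them Snora52 at -0.11 and Snora75 at -0.05, had 95% intervals that include 0.

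**Figure D2:**
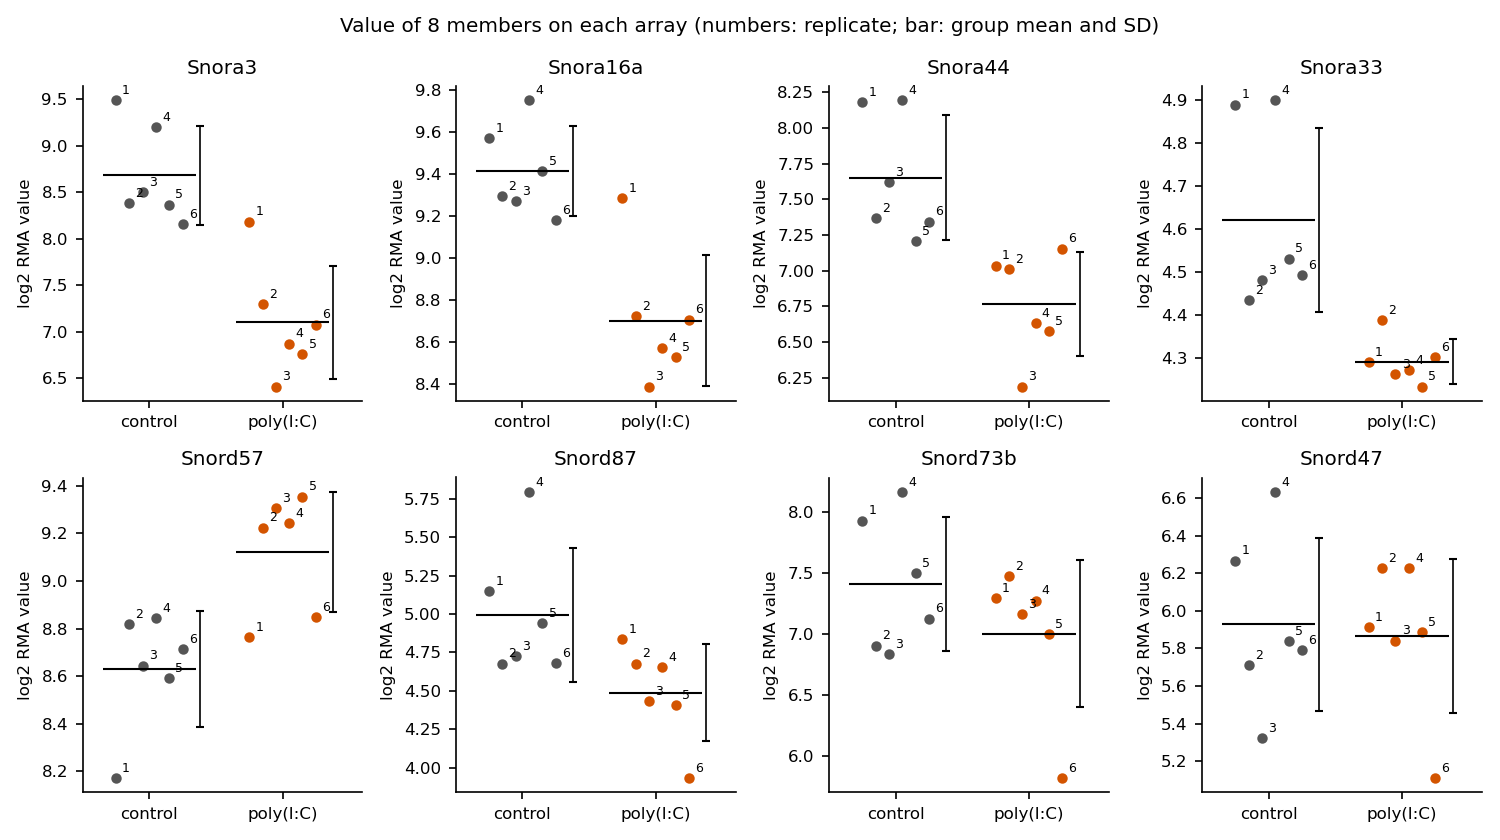
Log2 RMA value (y axis) of 8 members on each of the 6 control (grey) and 6 poly(I:C) (orange) arrays, with the replicate number beside each point, the group mean as a horizontal line and the SD as a vertical bar. Control replicates 1 and 4 are the highest controls for Snora3, Snora16a, Snora44 and Snora33, and poly(I:C) replicate 6 is the lowest array for Snord87, Snord73b and Snord47.

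Among C/D snoRNAs, Snord57, from an intron of Nop56 (a core protein of C/D particles), was the member with the largest difference in the higher direction. It ran from 8.17 to 8.84 in controls (median 8.68) and from 8.76 to 9.35 after poly(I:C) (median 9.23). The groups overlap only through poly(I:C) replicate 1, which lay below controls 2 and 4, and control 1 was the lowest array. The difference was 0.49 (95% interval 0.23 to 0.76, limma adjusted p = 0.126).

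Snord87 ran from 4.68 to 5.80 in controls (median 4.83) and from 3.93 to 4.84 after poly(I:C) (median 4.54), with a difference of -0.51 (limma adjusted p = 0.25). Control 4 was its highest array and poly(I:C) replicate 6 its lowest, and the groups overlap. Snord38a ran from 3.28 to 3.70 (median 3.48) against 3.19 to 3.36 (median 3.32), with a difference of -0.19. Snord87 and Snord38a were the C/D rows lower at unadjusted p under 0.05, and Snord57 and Snord37, with a difference of 0.11 in the translation factor gene Eef2, were those higher.

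Some C/D rows had wide spreads within the groups and no difference at that p. Snord73b, of Rps3a1, ran from 6.84 to 8.16 in controls and from 5.82 to 7.47 after poly(I:C), with a difference of -0.41 (95% interval -1.01 to 0.20), which was -0.17 without poly(I:C) replicate 6 and -0.26 without control 4. Snord104 was at -0.36 (95% interval -0.75 to 0.03) and Snord35b at -0.34 (95% interval -0.72 to 0.05), and these were -0.20 without poly(I:C) replicate 6 and -0.20 without control 4. Snord47, of the noncoding gene Gas5, ran from 5.32 to 6.63 and from 5.11 to 6.23, with a difference of -0.06 (95% interval -0.52 to 0.40) that lay between -0.18 and 0.09 with 1 array left out. Snord14e, of the chaperone gene Hspa8, was at 0.17, from 0.066 to 0.34 with 1 array left out, and Snord82, of the nucleolin gene Ncl, at 0.05, from -0.005 to 0.15. Snord118, a C/D snoRNA needed for maturation of the large ribosomal subunit RNAs, was at -0.10 in both rows.

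The 4 Scarna rows went apart. Scarna13, an H/ACA RNA spanned by Snhg10, ran from 8.92 to 9.62 in controls (median 8.99) and from 8.22 to 8.97 after poly(I:C) (median 8.59), with a difference of -0.53 (limma adjusted p = 0.148). The pair of identical Scarna17 rows, a C/D type RNA, ran from 7.32 to 7.56 (median 7.47) and from 7.34 to 7.99 (median 7.78), with a difference of 0.25 (limma adjusted p = 0.254). Scarna8, of Haus6, was at -0.08. Groups overlapped for all 4.

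The members were then compared array by array within the groups, after subtracting each row's group mean, so that the poly(I:C) difference takes no part. The largest shared component, the 1 pattern over the 12 arrays that accounts for most of the sum of squares, took 57.8% over all 67 rows, with 61 rows on the same side. Alone, the 31 H/ACA rows gave 75.7% (30 on the same side) and the 32 C/D rows 74.5% (all 32 on the same side). The same measure was 27.9% over all tested rows, 32.6% over 311 microRNA rows and 62.8% over 72 genes of cytosolic ribosomal proteins. It was higher than in either class over 11 rows of the spliceosomal RNA U2 (99.8%), which repeat 1 symbol. Over the 6 other rows whose symbols begin with Rnu or Rn7s it was 89.0%. Among these, Rnu12 had the widest spread (SD 0.55 in controls and 0.31 after poly(I:C)). This set is not wholly outside the family: Rnu3a is U3, a C/D snoRNA without a Snord name, and had r = 0.87 with the C/D mean. Markers of several cell types also gave higher shares, such as choroid plexus (90.6%), medium spiny neurons (83.9%) and oligodendrocytes (81.8%). The sets differ in size, so their shares are not like for like. Rows of wide spread weigh most in the component over all members: both Snora3 rows, with 11.1% and 10.9% of the pattern's weight, and Snord73b, with 10.7%, led. With every member row scaled to the same spread the shares were 43.9% for all members, 52.1% for H/ACA and 49.7% for C/D rows. The comparison sets were not scaled, so these shares have no like measure beside them.

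The H/ACA and C/D patterns were alike in the controls and less so among the poly(I:C) arrays. Controls 1 and 4 were the highest controls for both, at 5.73 and 5.80 in the H/ACA mean and at 5.30 and 5.44 in the C/D mean, while the other controls lay between 5.43 and 5.51 and between 5.03 and 5.14. Among the poly(I:C) arrays, replicate 1 was highest in the H/ACA mean at 5.52 and replicate 3 lowest at 5.10. In the C/D mean, replicates 1 to 5 lay between 5.11 and 5.21 and replicate 6 at 4.83.

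Over the 12 group-centred arrays the H/ACA and C/D means had r = 0.64 (rho 0.64), with 0.97 within the controls and 0.26 within the poly(I:C) arrays. Without the 2 arrays farthest from the median, control 4 and poly(I:C) replicate 1, r was 0.43, and without poly(I:C) replicate 6 it was 0.80 on the same centring. A second component of all members took 22.3%, with 22 of 31 H/ACA rows but 6 of 32 C/D rows on its positive side, where poly(I:C) replicate 6 had the highest score. These correlations share arrays and normalization and carry no test.

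**Figure D3:**
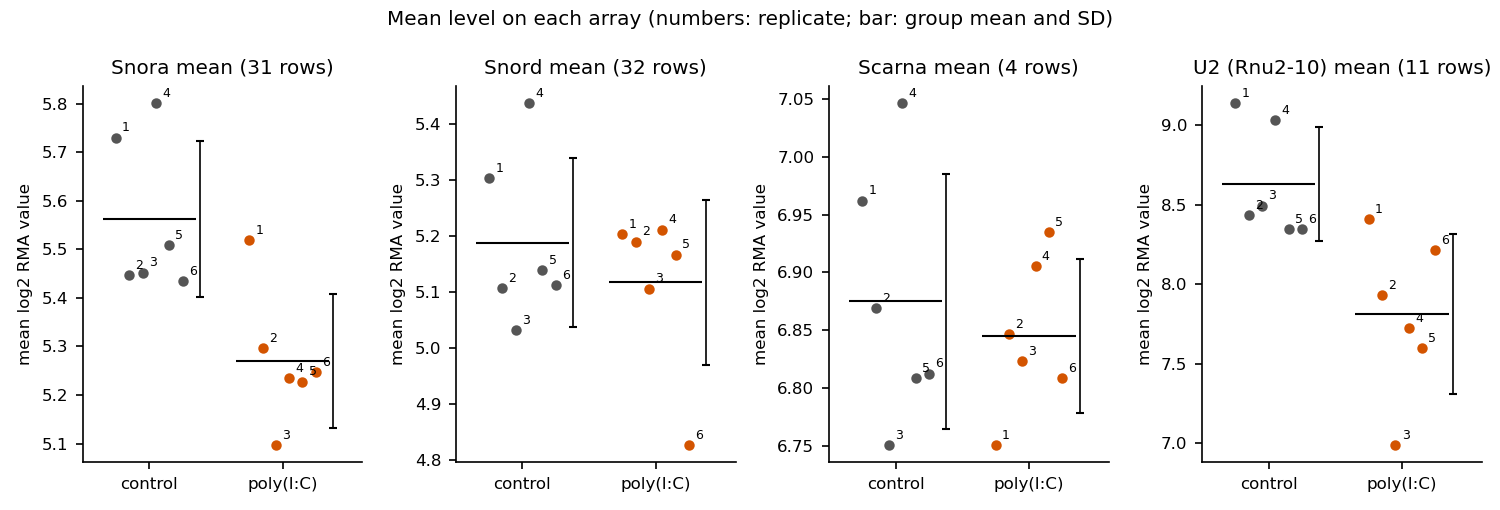
Mean log2 RMA value (y axis) of the 31 Snora, 32 Snord, 4 Scarna and 11 U2 (Rnu2-10) rows on each of 6 control (grey) and 6 poly(I:C) (orange) arrays, with replicate numbers, group means as lines and SD as bars. Controls 1 and 4 are high in all 4 panels, and poly(I:C) replicate 6 is lowest in the Snord panel at 4.83 but not in the Snora panel.

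Single rows followed their own class more closely. The median correlation of an H/ACA row was 0.73 with the mean of the other H/ACA symbols and 0.48 with the C/D mean. For C/D rows it was 0.70 with the other C/D symbols and 0.53 with the H/ACA mean. Against the mean of all other members, 24 of 31 H/ACA and 24 of 32 C/D rows had r over 0.5, the highest being Snora28 at 0.94. Rows that did not go with the rest were Snord57 (-0.20), Snord37 (-0.09), Snora75 (-0.04), Snora19 (-0.03), Scarna17 (0.02) and Snord73a (0.05), so the leading C/D row in the higher direction was also the one that ran most against the common pattern.

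U2, the spliceosomal RNA whose bases Scarna RNAs help to modify, was measured by 11 rows of Rnu2-10. Its mean ran from 8.35 to 9.14 in controls (median 8.46) and from 6.99 to 8.41 after poly(I:C) (median 7.83), with the groups overlapping through poly(I:C) replicate 1. All 11 rows were lower at unadjusted p under 0.05, with a median difference of -0.82, and the smallest limma adjusted p was 0.111. These rows repeat 1 symbol and some have identical group means and SDs, so they do not count as separate measurements. Within groups the U2 mean had r = 0.87 with the H/ACA mean (rho 0.89) and r = 0.25 with the C/D mean (rho 0.40, and r = 0.62 without poly(I:C) replicate 6). The minor spliceosomal RNA Rnu12 was at -0.73 and had r = 0.92 with the H/ACA mean and 0.53 with the C/D mean.

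**Figure D4:**
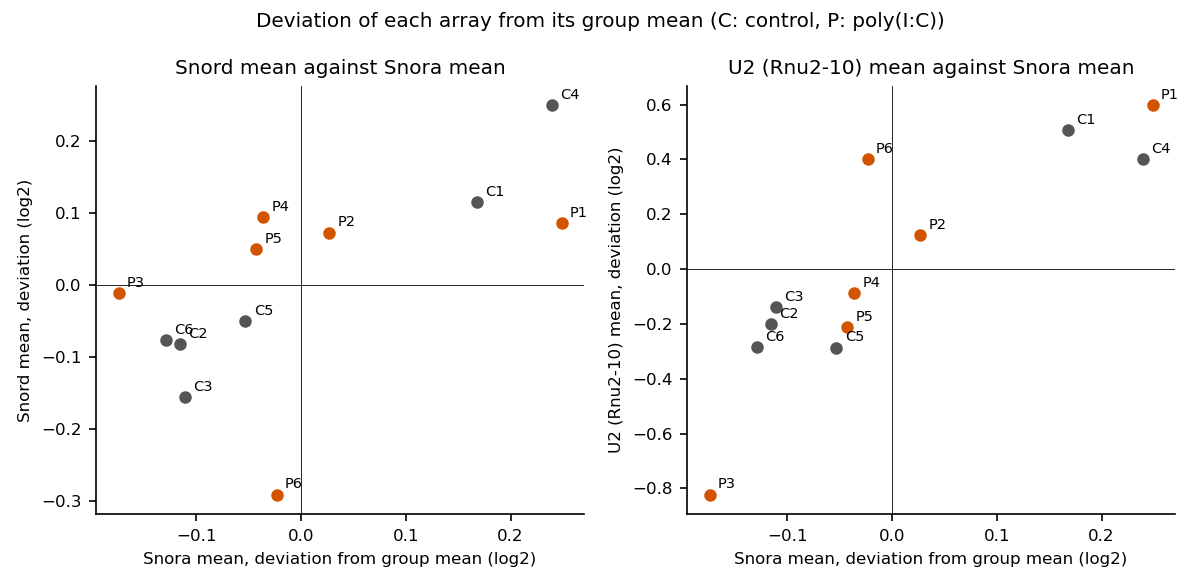
Deviation of each array from its group mean on the log2 scale, for the Snord mean (left, y axis) and the U2 mean (right, y axis) against the Snora mean (x axis), with C for control and P for poly(I:C) and the replicate number. On the left the controls line up and P6 lies alone below (r = 0.64), and on the right the arrays follow the Snora mean more closely (r = 0.87).

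The group difference of each class was also fitted beside a per-array mean, as a description. With the C/D mean as a covariate the median H/ACA difference went from -0.16 to -0.13, with 14 rows lower at unadjusted p under 0.05. With the H/ACA mean as a covariate the median C/D difference went from -0.054 to 0.085, with 3 of 32 rows lower in value. With the U2 mean as a covariate, chosen after its values were seen, the median was -0.035 for H/ACA rows (3 lower and 2 higher at unadjusted p under 0.05) and 0.026 for C/D rows. In that fit Snora3 stood at -0.60 in both rows, Snora16a at -0.29, Snora44 at -0.18 and Snord57 at 0.18. The covariates themselves differ between the groups, U2 by -0.82 and the H/ACA mean by -0.29, so these fits take part of the group difference with them. The share of all tested rows at that p was not counted in these fits, so the counts have no background beside them.

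Other small noncoding RNAs were set beside the family after their values were seen. Rny1 and Rny3, the RNAs of Ro particles, were at -0.32 and -0.25 and had r = 0.73 and 0.84 with the H/ACA mean and 0.93 and 0.78 with the C/D mean. Rmrp, the RNA of a nuclease that cuts the ribosomal RNA precursor, was at -0.01 with r = 0.52 and -0.09, and Rn7sk, a regulator of transcription elongation, at -0.05 with r = 0.18 and 0.08. The telomerase RNA Terc, which carries an H/ACA motif but no Snora name, was at -0.04 with r = -0.19 with the H/ACA mean. The 311 microRNA rows had a median difference of -0.005, with 16 lower and 18 higher at unadjusted p under 0.05. Together these were 10.9% of the microRNA rows, beside 14.4% of all tested rows.

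Host gene and snoRNA values were set side by side for the 34 symbols spanned by exactly 1 gene with a row of its own, 29 hosts in all. The RefSeq table used gives the span and not the strand. The median host difference was -0.031 and the median snoRNA difference -0.062, and 0 of these hosts passed the adjusted test. Within groups, the median correlation between a snoRNA and its host was 0.35, with 0.16 for 18 H/ACA symbols, 9 of them above 0, and 0.37 for 15 C/D symbols, 14 of them above 0. Across the 34 pairs the correlation of the differences was 0.053.

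Several members with a large difference, among them Snora44, Snora16a, Scarna13, Snora74a and Snord87, have no such pair. Among the pairs, those with the largest snoRNA differences are given first. Rpl27a was at 0.00 (95% interval -0.09 to 0.09) where Snora3 was at -1.62, and Nop56 at 0.04 (95% interval -0.07 to 0.15) where Snord57 was at 0.49. Kansl2 was at 0.00 where Snora34 was at -0.43 (r = 0.68), and Rps3a1 at -0.10 where Snord73b was at -0.41 (r = 0.42). Tpt1 was at -0.06 and Snora31 at -0.41 (r = -0.03). Eif5, a translation initiation factor, was at 0.13 where Snora28 was at -0.38, and their deviations ran in opposite directions (r = -0.85). Pairs with a high correlation were Snord42b with Rpl23a (r = 0.88, differences -0.15 and -0.16), the brighter Snora21 row with Rpl23 (r = 0.85, -0.29 and -0.15) and Snora33 with Rps12 (r = 0.79, -0.33 and -0.13).

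Long noncoding genes that host small RNAs were described apart. Snord47 had r = 0.89 with the brightest of 4 Gas5 rows, which was at 0.20, while the other Gas5 rows were at -0.09, -0.11 and -0.01 with r = 0.74, 0.45 and -0.52. The list of 22 host genes of snoRNAs and other small RNAs had 9 with a row, of which Ube3a encodes a protein and only Gas5 spans a member. Over the 8 without Ube3a, the mean was 6.57 ± 0.13 in controls and 6.56 ± 0.14 after poly(I:C) (SD, n = 6), and within groups it had r = 0.74 with the H/ACA mean and 0.89 with the C/D mean. None of the 9 was at an unadjusted p under 0.05 (limma, with 0 at an adjusted p under 0.05).

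Members that share a host varied together in most cases. The 12 such pairs had a median r of 0.64 within groups, against 0.47 for 752 pairs of 1 class in different hosts and 0.39 for 779 H/ACA with C/D pairs in different hosts. The highest were Snora73a with Snora73b in Snhg3 (0.95), Snord49a with Snord49b in 2410006H16Rik (0.87) and Snord15a with Snord15b in Rps3 (0.85). Each of these pairs shares a family name as well as a host, and whether their probes tell the members apart was not tested. Snora2b with Snora34 in Kansl2, of different names, had 0.80, and Snord73a with Snord73b in Rps3a1 had 0.12. In Snhg12, Snora16a had 0.72 with Snora44 and 0.70 with Snora61, but Snora44 and Snora61 had 0.25. The lowest was Snord95 with Snord96a in Rack1 (-0.02).

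**Figure D5:**
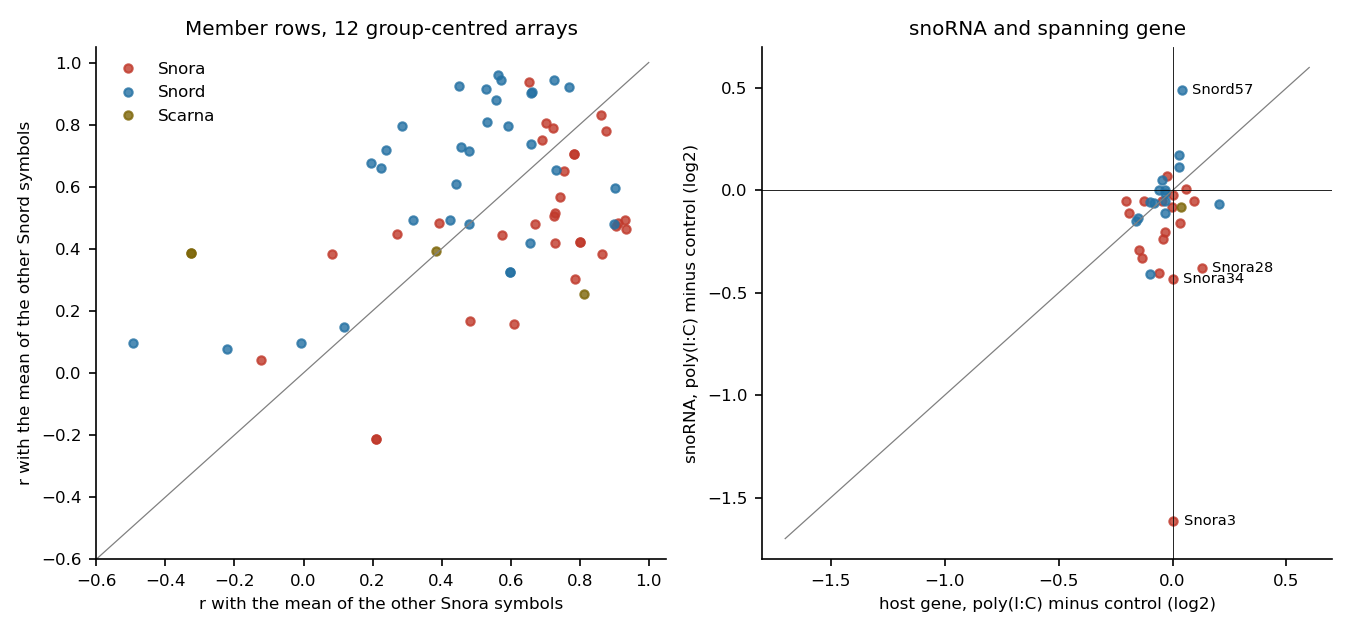
Left, for each member row the correlation over 12 group-centred arrays with the mean of the other Snora symbols (x axis) and of the other Snord symbols (y axis), with Snora, Snord and Scarna rows coloured and a line of equal values. Right, the poly(I:C) minus control difference of 34 snoRNAs (y axis) against that of the gene that spans them (x axis), both log2, where Snora3 and Snord57 stand far from the line of equal values.

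Protein partners of the family were listed apart, with 0 adjusted calls in each list. Of 6 measured H/ACA proteins and assembly factors, 1 was lower and 0 higher at unadjusted p under 0.05: Nhp2, a core protein of the particle, went from 7.88 ± 0.27 to 7.46 ± 0.19 (difference -0.41, limma adjusted p = 0.155). Dkc1, the pseudouridine synthase, was at 0.10 and ran against the H/ACA mean within groups (r = -0.89). Gar1 and Nop10 were at 0.02 and -0.05. The 6 were not alike within groups: r with the H/ACA mean was 0.83 for Nhp2, 0.45 for Nop10 and 0.06 for Gar1. It was -0.21 for Shq1 and -0.56 for Naf1, and the mean of the 6 had r = 0.19. Of 9 measured C/D proteins of 12 listed, 1 was lower, Snu13 at -0.18, while Fbl, the methyltransferase, was at -0.12, Nop56 at 0.04 and Nop58 at 0.03. Of 13 Cajal body and nucleolar proteins 0 were lower and 1 higher, Polr1b at 0.15, with coilin (Coil) at -0.02. Of 16 measured RNA decay enzymes 0 were lower and 1 higher, Exosc8 at 0.11. In either direction the share at that p was 16.7% in the H/ACA protein list and 11.1% in the C/D protein list. It was 7.69% in the Cajal body and nucleolar list and 6.25% among decay enzymes, beside 14.4% of all tested rows. Over all tested rows, 6.57% were lower and 7.83% higher at unadjusted p under 0.05. The ribosomal protein genes had a median difference of -0.094, with 62 of 72 lower in value, and 23 lower and 0 higher at unadjusted p under 0.05.

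Genes outside the family were ranked by their correlation with the mean of all members over the 12 group-centred arrays, among 9300 symbols. Those most like it were Mapkapk5 (0.96), Stox2 (0.93), Zfand3 (0.93), Dtx3 (0.93) and Lin37 (0.93), followed by Rny1 (0.92). Those least like it were Bmpr2 (-0.89), Tmem68 (-0.89), Zfr (-0.88) and Epb41l2 (-0.88). Mapkapk5 itself was at -0.01 and Bmpr2 at 0.14 between the groups.

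Markers of other cell types were set beside the class means, because these are bulk samples in which fewer cells of a type and less RNA per cell cannot be told apart. The 10 oligodendrocyte markers measured, of 12 listed, were all lower in value after poly(I:C). Of these, 9 were at unadjusted p under 0.05, beside 6.57% of all rows lower at that p. At an adjusted p under 0.05 there was 1 (Mobp, limma adjusted p = 0.041), beside 0.0613% of all rows. The mean of the 10 markers ran from 7.94 to 8.51 in controls and from 7.79 to 7.98 after poly(I:C). Within groups that mean had r = -0.47 with the H/ACA and -0.33 with the C/D mean, and its part in the members' differences was not tested. The 11 choroid plexus and ependymal markers ran from 4.83 to 6.87 and from 4.70 to 4.90, highest in controls 6 and 4, with r = 0.01 and 0.10. The 8 cortical glutamatergic markers ran from 5.32 to 6.48 and from 5.83 to 6.65, with r = 0.22 and 0.31. For microglia markers r was -0.23 with the H/ACA and -0.60 with the C/D mean, the latter -0.39 without poly(I:C) replicate 6. In the same order r was -0.42 and -0.18 for astrocyte markers and 0.02 and -0.40 for medium spiny neuron markers. It was -0.35 and 0.14 for septal, pallidal and diencephalic markers. In a model that also held the means of the cortical, septal and choroid plexus markers, the median differences were -0.15 for H/ACA and -0.071 for C/D rows, and without controls 4 and 6 they were -0.13 and -0.020.

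The 8 endothelial and pericyte markers differed little between the groups, with means of 6.68 ± 0.06 and 6.67 ± 0.05 (SD, n = 6) and ranges of 6.58 to 6.73 and 6.6 to 6.74. Within groups their mean ran opposite to the H/ACA mean (r = -0.93, rho -0.95) and less so to the C/D mean (r = -0.45). The single markers were not alike in this. Their r with the H/ACA mean went from -0.87 (Pecam1) and -0.82 (Flt1) to -0.32 (Kdr), 0.02 (Abcb1a) and 0.09 (Vtn). The largest shared component of these 8 markers took 37.0%. The median of each array over all rows, 4.82 ± 0.03 in controls and 4.80 ± 0.02 after poly(I:C), had r = 0.64 with the H/ACA and 0.75 with the C/D mean. What part either plays in the shared pattern was not tested.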

How the data were processed

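RNA of 6 control and 6 poly(I:C) offspring was hybridised to Affymetrix gene arrays, and samples were grouped by the sample titles. The authors deposited 1 table of log2 values, made with RMA and Partek 6.6 per the submitters' processing notes. For its settings, and for the build, the entry is: not given in the sources used here. Quantile normalization hides a change shared by most transcripts. The number of arrays limits the precision.

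The 21218 rows with 1 platform symbol were fitted with limma 3.58.1 in R 4.3.3 (lmFit and eBayes, group as the only term, 10 residual and 3.94 prior degrees of freedom, two-sided) and adjusted by Benjamini-Hochberg over all of them at 0.05. No filter was applied. The fit was tested on simulated data. Shared patterns are singular value components of group-centred values. Spanning genes and promoters come from RefSeq tables of GRCm38.p6.

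The members and lists were chosen with earlier results of these data known. Members were named as those with the smallest p in each direction and class, the heaviest in the shared component, and those least like the rest. Snora61, Snora28, Snora34, other rows given with a value alone, and the small RNAs of other families were chosen after their values were seen. Replicate numbers do not pair the samples: deviations of same-numbered arrays had correlations from -0.20 to 0.27, with 1 of 6 above 0.1. The alternatives tried were other normalization, row filters, variance models, array weights, covariates, the replicate block and leaving out each array.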

Additional observations from a re-analysis of the deposited data

Results flagged for a closer look

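In 62 groups of 6 arrays that were checked for a single array far from the others by Dixon's test at the 95% level, 5 stood out. The test is set to flag about 1 in 20 groups by chance. That rate is no fair comparison here, because some members were checked for their weight in the shared component and the items share arrays. In the poly(I:C) group, replicate 6 was lowest in 4 of them: the mean over C/D rows was 4.83 there against 5.11 on the nearest array, Snord35b 5.00 against 5.58, Snord73b 5.82 against 7.00 and Snord47 5.11 against 5.84. In the controls, replicate 1 was lowest for Snord57, at 8.17 against 8.59. The 3 C/D members and the C/D mean rest on the same array and are not separate observations.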

How the results depend on the processing

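The count of members called, 0 as reported, was 3 with quantile normalization applied once more, 3 after a filter on rows below the median level, 3 with array weights and 6 with the array-wide component as a covariate, and leaving out 1 array gave from 0 to 3. The count was 2 without control 1, 3 without control 3 and 3 without poly(I:C) replicate 1. With the replicate block it was 0, with 24 members at unadjusted p. The calls were the Snora3 rows and Snora16a, and with the array-wide component also Snora44, Snora33 and Snord57. Calls over all tested rows were not counted under these alternatives, so the counts of members have no background share beside them. The count at unadjusted p, 22, was 14 of 28 members after the filter and 6 with the U2 covariate. In the reported fit, 19.8% of all rows above the median level were at that p. The H/ACA median of -0.16 became -0.41 after the filter, and the C/D median of -0.054 became 0.085 with the H/ACA covariate. The filter kept 16 of 31 named rows and gave an H/ACA component share of 82.7%. With scaled rows, the shares were 43.9%, 52.1% and 49.7% for all members, H/ACA and C/D. The U2 covariate, the scaled rows, the class means without 1 array and the host list without Ube3a were chosen after the data were seen. Of 658 values of named members under the alternatives, 619 stayed uncalled and moved by less than the row's SD within groups. A further 23 passed the threshold that the reported value missed, and 16 stayed uncalled but moved by that SD or more. Counted over all 658, 28 had the opposite sign, and none of these was called. Without 1 array, the correlation of H/ACA with C/D means ran from 0.48 to 0.82 and the share of the component over all members from 51.9% to 66.2%. Precision is limited by 6 arrays a group, and 28 of 67 members lie above the median level. The causes of these shifts were not tested.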
